A study of Sus scrofa with 9 samples.

Results

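The border zone, the strip of myocardium that surrounds an infarct, was compared with healthy and with ischemic myocardium of the same hearts, to find genes whose nascent transcription was highest or lowest there. All 9 of 9 libraries of the series entered the comparison, and 2104 of the 3952 genes in the deposited table were tested. Each gene was represented by its longest annotated span among those with a mean of at least 0.5 RPKM, reads scaled by span length and library depth, over the 9 libraries. The tested quantity was the mean log2(RPKM + 0.1) of the border zone minus the average of the healthy mean and the ischemic mean, called the contrast below.

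The animals were 3 female farm pigs whose left anterior descending coronary artery was occluded in its distal part by an embolization coil placed through a micro catheter. Hearts were sampled 24 hours later. Healthy, border zone and ischemic tissue came from each animal, so the 3 groups hold 3 libraries each and share the same pigs. All 9 samples therefore come from infarcted, anesthetized animals, and the healthy group is myocardium of a heart that carries an infarct. Tissue was minced and digested with collagenase before nuclei were isolated, so the libraries represent the cells that this digestion released. Nascent RNA was labelled with BrUTP in a nuclear run-on and sequenced (GRO-seq), which counts engaged RNA polymerases along a gene, introns included, and not finished messenger RNA.

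After a coronary artery closes, cardiomyocytes in the core of its territory die, whereas those at the margin survive under altered stretch and metabolism. Neutrophils and then monocytes enter both areas and release cytokines such as interleukin 1, and stretched cardiomyocytes transcribe natriuretic peptide genes. A gene can therefore be graded across the zones, reach the same level in both injured zones, or be particular to the margin.

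Totals per library spanned 2187977 to 7005976 reads for the border zone, 2730083 to 6531658 for healthy and 883656 to 2134087 for ischemic myocardium. The median gene tested held 43 to 145.5 reads in border zone, 48 to 100.5 in healthy and 17 to 50 in ischemic libraries, so values of weakly transcribed genes were least precise in the ischemic group. Of the nonzero read counts, 32.2% to 40.1% were multiples of 3 in the other 8 libraries and 46.9% in ischemic replicate 3, so reads may not all be independent, and counting intervals may be too narrow and floors too low. The 6 cardiomyocyte markers tested summed to 133 to 232 RPKM in border zone, 283 to 508 in healthy and 55.5 to 195 in ischemic libraries. The muscle creatine kinase gene CKM was listed at 0 in every library. In such bulk samples, fewer cells of a type and less transcription per cell cannot be told apart.

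The contrast passed the threshold of an adjusted p of 0.05 for 7 of 2104 genes, all of them higher in the border zone (0.333%). Those described here are IL1B, IL1A, AREG, SLC11A1, GPR84 and the microRNA gene MIR103-2. No gene passed as lower by limma (0%), and 152 genes were higher (7.22%) and 21 lower (0.998%) at an unadjusted p under 0.05. A fit to the recovered read counts with limma-voom passed 31 genes as higher, 5 of the 7 among them, and 0 as lower. The count of higher genes rested on single libraries. It was 0 without border zone replicate 1 or 3, 1 without healthy replicate 2, 4 without border zone replicate 2 and 15 without ischemic replicate 1.

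A gene had to differ from both other zones in the same direction to count as a peak or a dip of the border zone. By limma, 1 gene was higher than both (0.0475%), MIR103-2, and 0 were lower than both (0%). MIR103-2 was at 0 in both other zones and passed the filter through its border zone values only. A gene of that form enters the test only if it is high in the border zone, so its call is no independent support for a peak. At an unadjusted p under 0.05 in both comparisons, 6 genes were higher and 6 were lower (0.285% each), and limma-voom passed 0 peaks and 0 dips. The count of peaks was 0 without border zone replicate 3 or ischemic replicate 3 and 2 without border zone replicate 1, where 1 dip passed too. The 6 higher genes were MIR103-2, RHOG, FAM26F, ESD, MIR186 and MIR181A-1, and the 6 lower genes were ADAMTS1, TBX2, EPAS1, KCNA5, FABP5 and SOCS6.

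**Figure D1:**
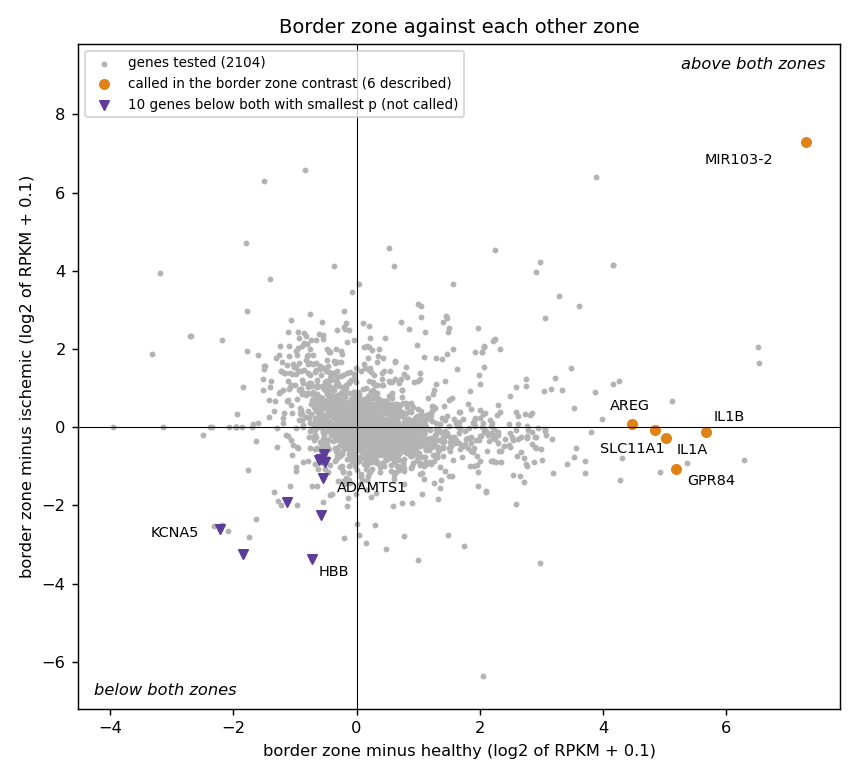
Difference of the border zone mean from the healthy mean (x axis) and from the ischemic mean (y axis), both in log2(RPKM + 0.1), for the 2104 genes tested. Orange circles are the 6 described genes that passed the contrast, of which only MIR103-2 lies far from both axes in the upper right, while the other 5 lie far to the right at a y value between -1.07 (GPR84) and 0.08 (AREG); purple triangles are the 10 genes with the smallest p among those below both zones, none of which passed.

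MIR103-2 (NR_038533, minus strand of chromosome 17 from 36149787 to 36149866, susScr3) encodes a hairpin of the miR-103 family, which acts on messenger RNAs of lipid and insulin pathways. It was listed at 35.6, 3.61 and 28.9 RPKM in border zone replicates 1 to 3 and at 0 in the 6 other libraries. All 3 border zone values were thus above every other value, but they stood on 10, 2 and 5 reads over a span of 79 bp. A single read was worth 1.81 to 5.79 RPKM here in the border zone libraries and up to 14.3 RPKM in ischemic replicate 3. No other gene of the deposited table overlaps this span. Genes absent from that table were not examined, and intron reads of such a gene could not be told apart from those of MIR103-2.

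Over pooled reads scaled for depth, MIR103-2 in border zone exceeded a floor of 3 reads over the group 5.64-fold for healthy and 1.85-fold for ischemic myocardium. Such values take the border zone reads as counted and leave out their counting error, so they are no bounds. The contrast had an adjusted p of 0.00637 (limma), and its fitted value of 7.29 depends on the 0.1 RPKM added and is no bound. It did not pass by limma-voom (adjusted p = 0.261), with all libraries thinned to the depth of the shallowest (0.435), with 1 RPKM added (0.0917), or without border zone replicate 1 (0.0817) or 3 (0.107). The adjusted p ranged from 0.000452 to 0.435 over 21 alternatives and passed in 16.

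MIR186 and MIR181A-1 had the same form on still fewer reads, 6 reads each in the border zone and 0 elsewhere. Both likewise passed the filter through the border zone only. MIR186 was listed at 10.4, 5.29 and 0 RPKM in the border zone, and it lies within ZRANB2 on the same strand, so reads of the 2 genes cannot be told apart. MIR181A-1 was listed at 0, 4.16 and 13.3 RPKM. Over pooled reads each exceeded the floor of 3 reads in healthy myocardium 1.99-fold, a value that leaves out the counting error of its 6 reads. Against that floor in ischemic myocardium the value was not above 1. Across all 55 microRNA genes tested, whose spans were 79 to 108 bp, the median was 3 reads in border zone, 3 in healthy and 0 in ischemic myocardium. The groups held 12744893, 12687836 and 4158653 reads in the same order, so these medians cannot be compared directly. Of the 55 genes 1 passed the contrast (0.333% of all genes). At an unadjusted p under 0.05, 6 were higher (10.9%) and 0 lower, against 7.22% and 0.998% of all genes. MicroRNA genes at 0 elsewhere entered the test through the border zone only, so this count is no independent support for higher values there.

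The other 5 genes described here shared another form. They were near 0 in healthy myocardium and stood in the border zone close to the ischemic level or, for GPR84, somewhat below it. Each rose from healthy to border zone, and none differed between border zone and ischemic myocardium in the test. Being near 0 in healthy myocardium, they passed the filter through the other zones only, so their calls are no independent support for a rise. On a log scale the reference of the contrast is the midpoint of the 2 other zones, and a gene that has reached its ischemic level in the border zone lies well above that midpoint.

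Both interleukin 1 genes were in this set. IL1B (NM_214055, chromosome 3 from 45319296 to 45326287), the precursor of interleukin 1 beta, was at 0.262, 0.167 and 0.197 RPKM in healthy, 16.2, 11.7 and 19.9 in border zone and 30.7, 11.4 and 13.9 in ischemic replicates 1 to 3. All border zone values lay above all healthy values and within the ischemic range. The contrast was 2.78 ± 0.33 (± SE here and below, adjusted p = 0.0134), made up of a difference of 5.68 ± 0.38 from healthy (adjusted p = 0.000233) and of -0.12 ± 0.38 from ischemic myocardium (adjusted p = 0.914).

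IL1A (NM_214029, chromosome 3 from 45453545 to 45465557), which encodes the membrane and nuclear form of the cytokine, was at 0.152, 0.194 and 0.166 RPKM in healthy, 12.7, 5.25 and 9.74 in border zone and 18.8, 7.15 and 8.57 in ischemic libraries. Border zone and ischemic values overlapped, and both were far above healthy. Its contrast was 2.37 ± 0.37 (adjusted p = 0.0432), and 12 of 21 alternatives did not pass it (adjusted p from 0.00812 to 0.409). IL1B2, a close copy of IL1B with which reads may be shared, was at 0 in all healthy libraries, at 4.26, 2.8 and 3.25 RPKM in border zone and at 5.5, 2.3 and 0.7 in ischemic libraries, and missed the threshold (contrast 2.89 ± 0.52, adjusted p = 0.0989). IL1B2 passed with quantile normalization (adjusted p = 0.0481), by limma-voom (0.00386) and without ischemic replicate 1 (0.00812) or 3 (0.0315).

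AREG (NM_214376, chromosome 8 from 74568826 to 74579002), amphiregulin, a ligand of the EGF receptor, was at 0.036, 0.086 and 0.0451 RPKM in healthy, 3.79, 2.89 and 3.32 in border zone and 4.97, 2.93 and 2.11 in ischemic libraries. The border zone values fell inside the ischemic range. The contrast was 2.27 ± 0.27 (adjusted p = 0.0134), with a difference of 0.08 ± 0.32 from ischemic myocardium (adjusted p = 0.933). HBEGF, another ligand of that receptor, was at 4.68, 3.77 and 4.85 RPKM in border zone, below the ischemic values of 7.57, 4.61 and 12 except for an overlap at 4.61, and its contrast of 1.39 ± 0.30 did not pass by limma (adjusted p = 0.177) but did by limma-voom (adjusted p = 0.0394).

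The remaining 2 genes described are used by phagocytes. SLC11A1 (NM_213821, chromosome 15 from 133453353 to 133454896), a metal transporter of the phagosome, was at 0 in every healthy library, at 3.83, 2.31 and 2.37 RPKM in border zone and at 4.86, 1.7 and 2.93 in ischemic libraries. GPR84 (NM_001258301, chromosome 5 from 20410012 to 20411646), a receptor for medium-chain fatty acids on myeloid cells, was also at 0 in healthy libraries, and stood at 5.52, 2.62 and 3.08 RPKM in border zone and at 8.6, 4.83 and 10.4 in ischemic libraries. In each pig GPR84 was higher in ischemic than in border zone myocardium, whereas SLC11A1 overlapped between those zones.

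Over pooled reads, border zone exceeded healthy myocardium at least 17.9-fold for SLC11A1 and at least 24.2-fold for GPR84. Their adjusted p values for the contrast were 0.0247 and 0.0379, and each kept the call in 8 alternatives, of 20 for SLC11A1 and of 21 for GPR84, with adjusted p reaching 0.479 and 0.731. SLC11A1 dropped out where the longest position was taken before the filter, so its tested span is not the longest listed for the gene. IL1B passed in 15 of 21 alternatives (adjusted p from 0.00268 to 0.183) and AREG in 13 of 21 (0.0036 to 0.24). Set against the linear average of the other zones within pigs, an alternative whose values for single genes were added after seeing the data, 0 genes passed. The contrast was then 0.85 for IL1B, 0.69 for IL1A, 1.00 for AREG and 0.88 for SLC11A1 (adjusted p = 0.652 each), and it turned to -0.09 for GPR84 (adjusted p = 0.887).

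**Figure D2:**
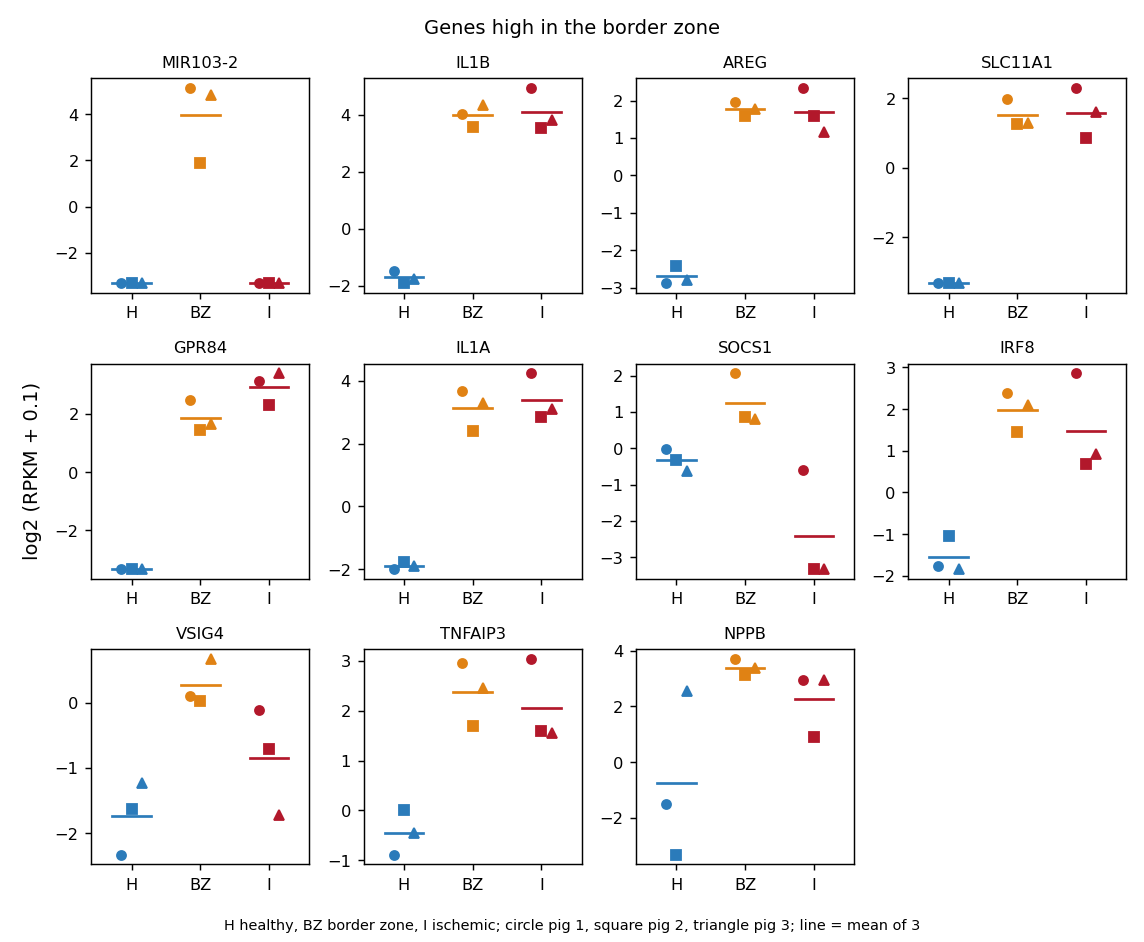
Values of 6 genes that passed and of SOCS1, IRF8, VSIG4, TNFAIP3 and NPPB in each library, as log2(RPKM + 0.1), by zone on the x axis; symbols mark the pig and lines the mean of 3. IL1B, IL1A, AREG, SLC11A1 and GPR84 show border zone and ischemic values well above healthy, with GPR84 lower in border zone than in ischemic myocardium of each pig, and MIR103-2, SOCS1, VSIG4 and NPPB show all 3 border zone values above the other 6.

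Summed markers of leukocytes were also higher in border zone and ischemic than in healthy myocardium. Of those in the deposited table, 13 of 18 macrophage and monocyte markers and 5 of 10 neutrophil markers passed the filter. Markers near 0 in healthy myocardium passed it through the other zones only, so the sums describe the tested members and not the whole lists. The 13 macrophage and monocyte markers tested summed to 25.8 to 39.6 RPKM in border zone, 5.16 to 9.52 in healthy and 45.1 to 55.6 in ischemic libraries, with CD163 and TREM2 listed at 0 in every library. The 5 neutrophil markers tested summed to 5.89 to 11.9, 0.174 to 0.517 and 14.4 to 32.1 RPKM in the same order, with PGLYRP1, NPG1 and PMAP-23 at 0 in all border zone and ischemic libraries. Both sums were thus intermediate in the border zone, with a median difference of the 5 neutrophil markers from ischemic myocardium of -1.15, and their part in the results for the called genes was not tested. None of these markers passed the contrast by limma. By limma-voom 3 macrophage markers passed as higher (SPP1, MSR1 and CCR1) and 0 neutrophil markers, against 31 of 2104 genes in all. At an unadjusted p under 0.05 by limma, 7 of 13 macrophage and 2 of 5 neutrophil markers were higher, against 152 of 2104 genes (7.22%). The limit set by the filter holds for these counts too, so they are no independent support for higher values in the border zone.

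Among macrophage markers, VSIG4, a complement receptor of resident macrophages, was the single one with all border zone values above all others, at 0.98, 0.922 and 1.49 RPKM, against 0.0993, 0.224 and 0.325 in healthy and 0.826, 0.515 and 0.204 in ischemic libraries. Its contrast was 1.56 ± 0.43 (adjusted p = 0.376). With the position of highest mean in place of the longest span the value for VSIG4 was -0.11. CCR1, a chemokine receptor, lay lower in the border zone (2.84, 2.13 and 2.82 RPKM) than in ischemic libraries (5.99, 5.14 and 10), and CD86, a costimulatory molecule, had overlapping values, at 1.68, 0.944 and 1.52 against 2.03, 1 and 1.29 RPKM. The contrast of CCR1 had an adjusted p of 0.287 by limma and 0.0403 by limma-voom, and CCR1 overlaps XCR1 on the same strand.

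Other genes with the border zone mean above both zones did not pass. IRF8, a transcription factor of monocytes, was at 5.1, 2.62 and 4.2 RPKM in border zone and 7.14, 1.5 and 1.78 in ischemic libraries, and TNFAIP3, an inhibitor of NF-kB, was at 7.69, 3.15 and 5.37 and at 8.09, 2.9 and 2.84 RPKM. In both genes border zone replicates 2 and 3 were above their ischemic counterparts and replicate 1 was below, and the contrasts were 2.01 ± 0.49 (adjusted p = 0.263) and 1.56 ± 0.42 (adjusted p = 0.35). For IRF8 it was 1.07 with the position of highest mean (adjusted p = 0.639), and it passed without ischemic replicate 1 (2.36, adjusted p = 0.0116). FCN1, a lectin of monocytes, had 130 reads in border zone and 1 read in healthy myocardium, a ratio of 129 with an exact 95% counting interval of 22.8 to 5151, and its difference from ischemic myocardium was small beside its error (0.21 ± 0.53, adjusted p = 0.878). The contrast of FCN1 passed by limma-voom (adjusted p = 0.0119) and not by limma (0.189).

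SOCS1, a feedback inhibitor of cytokine receptors that interferon induces, showed another order of the zones. It was at 0.882, 0.702 and 0.553 RPKM in healthy, 4.07, 1.72 and 1.65 in border zone and 0.564, 0 and 0 in ischemic libraries, so that the border zone was highest in 3 of 3 pigs with no overlap. The contrast was 2.61 ± 0.63 (adjusted p = 0.263, and 0.00812 without ischemic replicate 1), with adjusted p = 0.248 for the difference from healthy and 0.0595 for that from ischemic myocardium. Pooled reads gave 25 in border zone against 1 in ischemic myocardium, a ratio of 8.16 (exact 95% counting interval 1.34 to 335), and with pig as a block the difference from ischemic myocardium passed (adjusted p = 0.0284). RHOG, a small GTPase, had 8 reads in border zone, 3 in healthy and 0 in ischemic myocardium, and the depth gave no bound above 1 against the latter.

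The border zone held all 3 highest of the 9 values for 25 genes (1.19%) and all 3 lowest for 6 genes (0.285%). The split of these counts depended on the scaling of the libraries, since the median contrast of all genes was 0.16 as deposited, 0.01 with libraries scaled to the same median and -0.03 with quantile normalization. The counts were 11 and 23 with median scaling and 10 and 40 with quantile normalization. Likewise the border zone mean was above both others for 600 genes (28.5%) and below both for 245 (11.6%) as deposited, for 367 and 442 with median scaling, and for 357 and 583 with quantile normalization.

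Highest in all 3 scalings were 7 of the 25 genes, MIR103-2, SOCS1, VSIG4, ESD, LGALS1, NPPB and TMEM86B, a set named after its values were seen. ESD, esterase D, had the tightest values, at 1.23, 1.17 and 1.27 RPKM in healthy, 1.99, 1.72 and 1.6 in border zone and 1.39, 1.01 and 1.02 in ischemic libraries. Its contrast was 0.55 ± 0.17 (adjusted p = 0.418). LGALS1, the secreted lectin galectin 1, was at 1.92, 1.78 and 1.82 RPKM in healthy, 3.19, 2.82 and 3.45 in border zone and 2.59, 2.29 and 0.986 in ischemic libraries (contrast 0.75 ± 0.28, adjusted p = 0.528).

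Among the other 18 of the 25 were ATP6V1A and ATP6V0E1, subunits of the vacuolar proton pump, at 0.972 to 1.2 and 1.39 to 1.85 RPKM in the border zone. The integrin subunit ITGB8 stood at 0.659, 0.749 and 0.667 RPKM in border zone against 0.324 to 0.382 in healthy and 0.418 to 0.524 in ischemic libraries, and its contrast passed by limma-voom (adjusted p = 0.0403) but not by limma (0.525). TGFBR3, a coreceptor for TGF-beta, differed least (contrast 0.25 ± 0.18, adjusted p = 0.794) and changed sign to -0.06 with quantile normalization.

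Natriuretic peptide genes mark stretched cardiomyocytes. NPPB was at 0.249, 0 and 5.73 RPKM in healthy, 12.8, 8.55 and 10.3 in border zone and 7.66, 1.79 and 7.7 in ischemic libraries, so all 3 border zone values were the highest and healthy replicate 3 stood apart from its group. The contrast was 2.64 ± 1.13 (adjusted p = 0.599). NPPA was at 9.66, 4.12 and 3.3 RPKM in border zone and overlapped the ischemic values of 8.46, 0 and 10.2 (contrast 1.66 ± 1.37, adjusted p = 0.811). ANKRD1, a stretch-responsive repeat protein of the sarcomere, averaged 43.6 ± 18.8 in healthy, 45.1 ± 15.3 in border zone and 31.3 ± 12.6 RPKM in ischemic myocardium (SD, n = 3 each), with a contrast of 0.32 ± 0.37 (adjusted p = 0.866).

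Of the 10 genes of wall stress and the fetal programme tested, 0 passed the contrast in either direction by limma. At an unadjusted p under 0.05, 3 were higher and 0 lower, against 7.22% and 0.998% of all genes. Their median contrast was 0.34, against 0.16 for all genes, their median difference from healthy was -0.06 and that from ischemic myocardium was 1.00. FHL1, a LIM protein, stayed at 8.77, 12.3 and 10.5 RPKM in border zone, among the values of 10.7, 9.16 and 9.9 in healthy and above 2.37, 4.81 and 4.85 in ischemic libraries, without overlap with the latter. CSRP3, the muscle LIM protein, was graded, at 14.8, 10.6 and 11.3, then 7.49, 8.22 and 6.12, then 1.18, 1.85 and 1.43 RPKM.

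Most tested genes of the contractile apparatus had a border zone mean between those of the other zones. Of 14 sarcomere and Z-disc genes tested, 0 passed the contrast in either direction by limma, and 13 lay between (1259 of 2104 genes in all, 59.8%). At an unadjusted p under 0.05, 2 of the 14 were higher and 0 lower, against 7.22% and 0.998% of all genes. The median difference of these 14 genes was -0.87 from healthy and 0.92 from ischemic myocardium. The medians for 7 calcium handling and ion channel genes were -0.79 and 1.38, for 20 genes of oxidative phosphorylation -0.70 and 0.82, and for 18 genes of fatty acid use -0.58 and 0.48. Of these groups 6 of 7, 18 of 20 and 13 of 18 genes lay between, and 0 passed the contrast by limma or limma-voom. At an unadjusted p under 0.05 by limma, 1 calcium handling gene and 2 genes of fatty acid use were higher (7.22% of all genes). At the same level 1 calcium handling gene and 1 gene of oxidative phosphorylation were lower (0.998% of all genes).

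Compared with ischemic myocardium alone, 21 genes were higher in the border zone (0.998%) and 3 were lower (0.143%). Among the former were CSRP3 (difference 2.23 ± 0.25, adjusted p = 0.0127), the dystrophin-associated protein SGCA (1.94 ± 0.26, adjusted p = 0.0354) and ACTN2, the actin cross-linker of the Z-disc (2.02 ± 0.36, adjusted p = 0.047). SGCA was at 1.5, 1.64 and 1.81 RPKM in border zone against 0.282, 0.528 and 0.292 in ischemic libraries. The muscle microRNA gene MIR1 was at 2.63, 40 and 4.27 RPKM in border zone, most of it in replicate 2, and at 0 in ischemic libraries. Over pooled reads its border zone value exceeded the floor of 3 reads in ischemic myocardium 3.48-fold. Compared with healthy myocardium alone, 136 genes were higher (6.46%) and 4 lower (0.19%).

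A further 3 genes differed from both other zones in opposite directions and so formed steps across the border zone, a pattern looked for after the values were seen. PRKAA2, a catalytic subunit of the energy sensor AMP kinase, was at 3.79, 4 and 3.03 RPKM in healthy, 1.28, 2.15 and 1.44 in border zone and 0.444, 0.485 and 0.447 in ischemic libraries. PDE3A, a phosphodiesterase that limits cyclic AMP in cardiomyocytes, was at 12.7, 13.3 and 10.2, then 4.34, 6.19 and 4.5, then 1.01, 2.08 and 1.03 RPKM. Neither gene had overlapping groups, and both were lower than healthy and higher than ischemic myocardium (0.0951% of genes). With the filter at 2 RPKM another span stood for PRKAA2, and its contrast was -0.73 against 0.23 here. The step of PRKAA2 is thus given for its tested span only.

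PTGS2, the inducible prostaglandin synthase, stepped upward (0.0475% of genes), at 0.379, 0.571 and 0.247 RPKM in healthy, 1.81, 1.71 and 1.84 in border zone and 5.5, 5.85 and 4.43 in ischemic libraries. Its differences were 1.97 ± 0.26 from healthy (adjusted p = 0.00375) and -1.50 ± 0.26 from ischemic myocardium (adjusted p = 0.047). The 3 steps are set beside 1 peak and 0 dips in the same fit, and limma-voom gave 30 steps, 0 peaks and 0 dips. The number of steps was 0 without any single healthy library, border zone replicate 1 or 3, or ischemic replicate 3, 1 without border zone replicate 2 or ischemic replicate 1, and 5 without ischemic replicate 2.

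Genes with the border zone mean below both other zones did not pass the contrast, and the nearest was ADAMTS1, a secreted metalloprotease (NM_001144843, chromosome 13 from 200127201 to 200135962). It was at 4.72, 2.77 and 2.95 RPKM in healthy, 2.44, 2.31 and 2.09 in border zone and 5.56, 5.4 and 6.2 in ischemic libraries, with no overlap of the border zone with either group. The contrast was -0.92 ± 0.21 (adjusted p = 0.21). The difference from ischemic myocardium, -1.29 ± 0.24, passed (adjusted p = 0.0476), and that from healthy, -0.55 ± 0.24, did not (adjusted p = 0.222).

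EPAS1, the hypoxia-inducible factor 2 alpha subunit, was at 2.6, 2.67 and 3.07 RPKM in healthy, 2.01, 2.13 and 1.57 in border zone and 2.71, 3.09 and 3.48 in ischemic libraries (contrast -0.60 ± 0.17, adjusted p = 0.404). With the position of highest mean, a shorter span, the value for EPAS1 was -1.49 (adjusted p = 0.909). TBX2, a T-box repressor of the developing heart, was at 0.911, 1.19 and 0.97, then 0.51, 0.791 and 0.62, then 1.43, 1.09 and 1.15 RPKM (contrast -0.73 ± 0.20, adjusted p = 0.376). The fatty acid binding protein FABP5 was at 4.56, 3.81 and 4.61 RPKM in border zone, and at 5.03 RPKM or more in every other library (contrast -0.69 ± 0.21, adjusted p = 0.418). In these 3 genes, as in ADAMTS1 and LARP7, the border zone held the 3 lowest values as deposited, with median scaling and with quantile normalization.

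LARP7, which binds a small RNA that restrains the elongation factor P-TEFb, was at 1.41, 2.06 and 1.57 RPKM in border zone against 2.24 to 2.7 in healthy and 2.55 to 4.53 in ischemic libraries (contrast -0.70 ± 0.23, adjusted p = 0.445). LRP2BP completed the 6 genes of this form, but its tested span was a placement of 85 bp. KCNA5, a potassium channel gene, and MGAT2, a Golgi glycosyltransferase, were listed at 0 in border zone replicate 3, the shallowest of its group, and at 0.272 to 1.07 and 0.63 to 0.639 RPKM in the other two. The beta-globin gene HBB was at 3.36, 8.74 and 1.45 RPKM in border zone, below the healthy value of the same pig each time (4.66, 14.4 and 3.04) and far below ischemic values of 66.3, 40.4 and 19.8 (contrast -2.05 ± 0.67, adjusted p = 0.445).

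**Figure D3:**
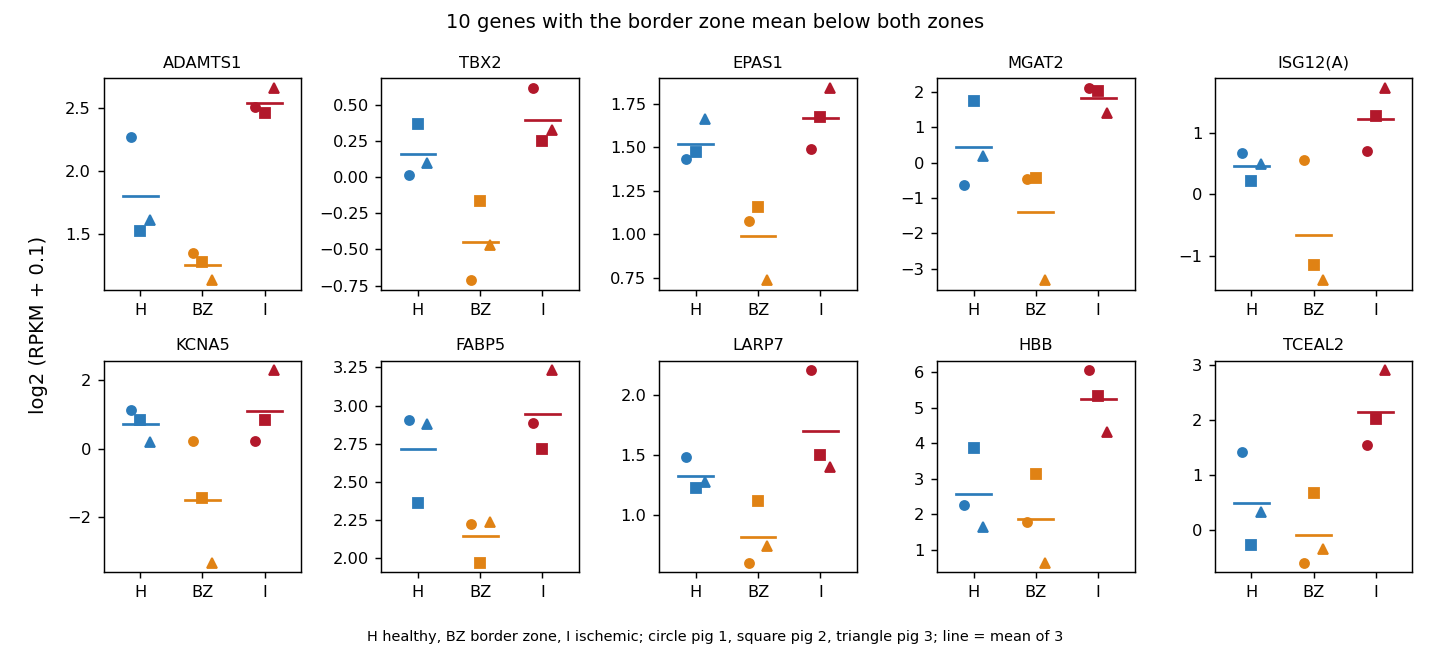
Values of the 10 genes with the smallest p among those with a border zone mean below both other zones, as log2(RPKM + 0.1) by zone on the x axis, with a scale of its own for each gene; symbols mark the pig and lines the mean of 3. The 3 border zone values of ADAMTS1, TBX2, EPAS1, FABP5 and LARP7 lie below the other 6, and KCNA5, MGAT2, ISG12(A), HBB and TCEAL2 overlap another zone.

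Medians of the inflammatory gene groups were well above healthy and slightly below ischemic myocardium. Of 18 cytokine and chemokine genes tested, 2 passed the contrast as higher by limma, IL1A and IL1B, and 3 by limma-voom, with CXCL8 as the third. By limma 6 were higher and 0 lower at an unadjusted p under 0.05, against 7.22% and 0.998% of all genes. The median difference of the group was 2.51 from healthy and -0.39 from ischemic myocardium, against 0.21 and 0.04 for all genes. Genes near 0 in healthy myocardium entered the test through the other zones only, so these counts and medians describe the tested members and not the whole list. The counts are therefore no independent support for higher values in the border zone. CXCL8, the neutrophil attractant interleukin 8, was at 74.2, 33.5 and 51.7 RPKM in border zone and 76.1, 37.6 and 81.6 in ischemic libraries, and its contrast of 2.34 ± 0.44 did not pass by limma (adjusted p = 0.113) but did by limma-voom (adjusted p = 0.00386).

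Of 16 NF-kB pathway genes 0 passed the contrast by limma. At an unadjusted p under 0.05, 3 were higher and 0 lower, against 7.22% and 0.998% of all genes. The median differences of the 16 genes were 1.08 from healthy and -0.19 from ischemic myocardium. TLR4, the receptor for bacterial lipopolysaccharide, was at 3.59, 1.77 and 3.9 RPKM in border zone and 6.02, 2.43 and 5.64 in ischemic libraries. FOS, an immediate early transcription factor, reached 74.1, 32.3 and 49.9 RPKM in border zone from 7.29, 7.58 and 6.53 in healthy, beside 75, 39.9 and 71.2 in ischemic libraries (contrast 1.25 ± 0.32, adjusted p = 0.3 by limma and 0.0403 by limma-voom). MYC, a growth-related transcription factor, was graded, at 5.45, 4.02 and 6.49 RPKM in border zone between 1.29 to 3.52 in healthy and 9.41 to 15 in ischemic libraries (contrast 0.17 ± 0.35, adjusted p = 0.917).

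Groups of protein folding and synthesis had medians below those of ischemic myocardium, but 0 of their 53 genes passed as lower than ischemic myocardium by limma (3 of 2104 genes did). By limma-voom 3 of the 53 did (25 of 2104 genes). At an unadjusted p under 0.05 by limma, 19 of the 53 were lower than ischemic myocardium and 0 higher. That count was not made over all genes, so whether 19 is more than their share cannot be said. The median difference from ischemic myocardium was -0.77 for 10 heat shock genes, -0.61 for 8 genes of the unfolded protein response and -0.58 for 35 ribosomal protein genes, while the differences from healthy were 0.23, 0.40 and 0.56. None passed the contrast by limma or limma-voom, and 0 had an unadjusted p under 0.05 for it. GAPDH, often used as a reference, was at 29.3, 27.9 and 21.8 RPKM in border zone and 28.5, 30.1 and 22.9 in ischemic libraries, and healthy replicate 1 stood apart at 61.5 (contrast -0.21 ± 0.33, adjusted p = 0.902, and 0.01 without healthy replicate 1).

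**Figure D4:**
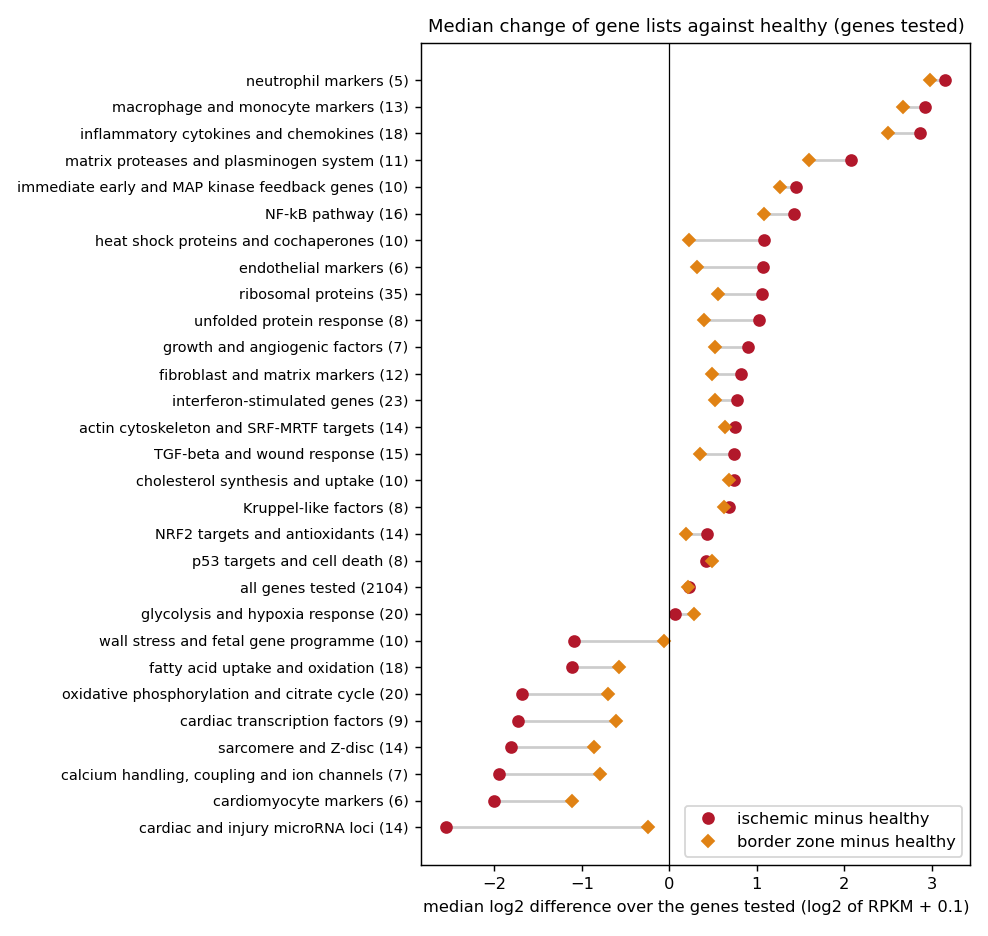
Median log2 difference from healthy of the tested genes of each list, for border zone (orange diamonds) and ischemic myocardium (red circles); the number of genes tested stands in brackets after each name. The diamonds lie near the circles for neutrophil, macrophage and cytokine lists, although the neutrophil genes' own median difference between these zones was -1.15, and about midway to 0 for the sarcomere, calcium handling and oxidative phosphorylation lists.

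The place of the border zone between the other zones was measured on genes that differed between ischemic and healthy myocardium. Their choice used the values that set the scale. Border zone values entered that choice only through the filter and the shared estimate of the spread. On a scale from 0% at the healthy mean to 100% at the ischemic mean, in log2 units, the median border zone position was 71.9% for the 422 genes higher in ischemic myocardium (20.1% of genes) and 37.5% for the 208 lower ones (9.89%). Of the former, 40 lay beyond the ischemic mean, 6 beyond the healthy mean and 376 between. Of the latter, the numbers were 0, 4 and 204. On the linear RPKM scale the medians were 56.7% and 52.3%, so the 2 sets, far apart on the log scale, lay close together on the linear one.

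The 3 border zone libraries differed in this position. For the genes higher in ischemic myocardium, the median was 87.4%, 55.3% and 74.6% in replicates 1 to 3 on the log scale, and 72.9%, 34.2% and 55.5% on the RPKM scale. For the genes lower in ischemic myocardium it was 44.1%, 15.6% and 48.5% on the log scale and 63.9%, 30.6% and 66.3% on the RPKM scale. Border zone replicate 2, the deepest library, was nearest to healthy in all 4 measures. The same library had the lowest summed macrophage markers of its group, at 25.8 RPKM, and the highest summed cardiomyocyte markers, at 232 RPKM.

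**Figure D5:**
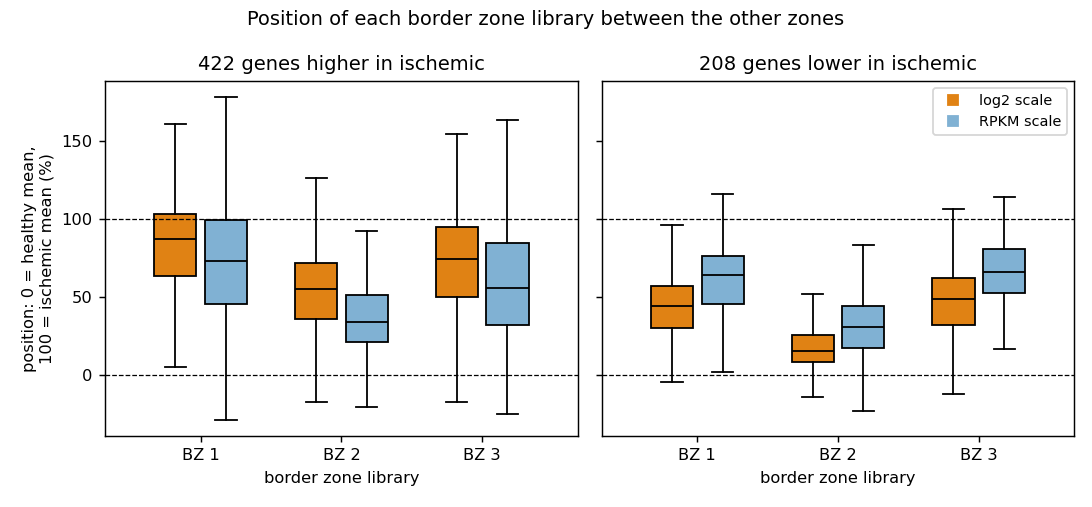
Position of each border zone library between the healthy mean (0%) and the ischemic mean (100%), y axis in percent, for the 422 genes higher (left) and 208 genes lower (right) in ischemic myocardium; boxes span the quartiles over genes with the median as a line, on the log2 scale (orange) and the RPKM scale (blue). The boxes of border zone replicate 2 lie nearest to 0% in both panels.

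Within pigs, the border zone was the highest of the 3 samples in every pig for 100 genes (4.75%) and the lowest in every pig for 27 genes (1.28%). With median scaling these counts were 46 and 76, and with quantile normalization 53 and 131, so neither direction prevailed under all scalings. With pig as a block the contrast passed 9 genes as higher and 0 as lower, adding ARG1, the arginase of myeloid cells, and TAGAP, a GTPase-activating protein of leukocytes. TAGAP was highest in the border zone in 3 of 3 pigs, at 8.65, 3.28 and 6.15 RPKM against 7.11, 2.12 and 5.08 in ischemic libraries, and had an adjusted p of 0.0351 with the block and 0.427 without it.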

How the data were processed

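GRO-seq was done on 9 myocardial samples. Per the labels and the file headers, the authors deposited RPKM values, reads scaled by annotated span (introns included) and by library total, for 4882 transcript positions. The genome build was susScr3 and the aligner Bowtie, per the submitters' processing notes. Not given in the sources used here are Bowtie's version, the counting program and the handling of strand and duplicates, so overlapping genes cannot be separated by strand. All nonzero RPKM values gave whole reads within 0.01, which gave the library totals. Intervals cover counting error only. Floors set a group without reads to 3 reads and leave out the counting error of the border zone reads. Both take reads as independent.

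The filter at a mean of 0.5 RPKM kept 2384 positions, of which the longest per gene stood for 2104 genes. Values were taken to log2(RPKM + 0.1) and fitted with limma 3.58.1 (R 4.3.3; 9 libraries, 3 groups, eBayes with trend and robust settings), 2-sided, with Benjamini-Hochberg adjustment over all genes. Fold changes on this scale understate changes of low genes. limma-voom was run on the recovered reads. Other steps used matplotlib 3.10.9, scipy 1.17.1, pandas 2.3.3 and numpy 2.4.6 in Python 3.11.15. The fit was tested on simulated data. Gene names and RNA classes came from a RefSeq table of Sscrofa11.1, which matched 4793 positions, and coordinates are those of the deposited table.

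The labels tie same-numbered samples to the same pig. Deviations from group means correlated within pigs with r of 0.165 to 0.198 for border zone and ischemic, -0.0179 to 0.15 for healthy and border zone, and 0.0348 to 0.059 for healthy and ischemic samples. Per the labels each pig is a separate animal.

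Named genes are peaks and dips, the 10 genes above and the 10 below both zones with the smallest p, called list members, 6 preset genes, and further genes chosen after their values were seen. The comparison, the gene lists and the tests were chosen with earlier results of these data known. A further result is not reported here.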

Additional observations from a re-analysis of the deposited data

How the results depend on the processing

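The number of genes passing the contrast as higher, 7 as reported, was 2 with 0.5 RPKM added and 0 with 1 RPKM added, 4 without a filter, 3 with the filter raised to 2 RPKM, 31 with limma-voom on recovered reads, 0 with reads thinned to the shallowest library and 0 against the linear average within pigs. It ranged from 0 to 15 when single libraries were left out. Genes passing as lower numbered 1 with the filter at 2 RPKM, with the position of highest mean and with every transcript position tested, and 0 to 1 when libraries were left out. Genes that passed and lay above both zones, 3 as reported, were 0 with 1 RPKM added, 1 with the filter at 2 RPKM, 6 with quantile normalization, 6 with limma-voom, 0 with thinned reads and 0 to 13 when libraries were left out, and those below both were 1 with the filter at 2 RPKM, the position of highest mean and every position tested. The cause was not tested.

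Peaks, 1 as reported, were 0 with 1 RPKM added, limma-voom, thinned reads or spans of at least 500 bp without microRNA genes (added after seeing the data), 2 with the position of highest mean and with every position, and 0 to 2 when libraries were left out. Dips, 0 as reported, were 1 with the filter at 2 RPKM, the position of highest mean (IGFBP5 in both) or every position, and 0 to 1 when libraries were left out. Steps, 3 as reported, were 1 with 0.5 or 1 RPKM added and without trend and robust settings, 0 without a filter, with quantile normalization, with the position of highest mean and with thinned reads, 30 with limma-voom and 0 to 5 when libraries were left out.

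Genes with all 3 border zone values highest, 25 as reported, were 40 without a filter, 5 with the filter at 2 RPKM, 11 with median scaling, 10 with quantile normalization and 28 to 77 when libraries were left out. Genes with all 3 lowest, 6 as reported, were 23 with median scaling, 40 with quantile normalization and 8 to 21 when libraries were left out, where fewer values have to be passed.

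With the replicate block by pig, the contrast passed 9 genes as higher and 0 as lower, with 1 peak, 0 dips and 4 steps, and all 7 genes kept their call. The contrast changed sign for PTGS2 with 1 RPKM added (-0.080) and thinned reads (-0.0042), for PRKAA2 with the filter at 2 RPKM and the position of highest mean (-0.73), for TGFBR3 with quantile normalization (-0.056), for VSIG4 with the position of highest mean (-0.11) and for GAPDH without healthy replicate 1 (0.0061, with a range of -0.36 to 0.0061 when single libraries were left out). The contrast was also taken against the linear average within pigs, where values for single genes were added after seeing the data. It was then -0.34 for MYC, -0.091 for GPR84, -0.39 for CCR1, -0.13 for ACTN2, -0.51 for MIR1, -0.18 for S100A12, -0.33 for PRKAA2, -0.42 for PDE3A and -0.62 for PTGS2. On that scale a level equal to the ischemic mean is not far above the reference. Depth limits the ischemic group most, where 12.3% to 33.7% of the genes tested held under 10 reads.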
